A study of Drosophila melanogaster with 9 samples.

Results

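The transcriptome of the control embryos of a Drosophila misexpression study was described from its 3 RNA sequencing libraries, taken out of the 9 of the series. The 3 libraries are all those labelled as the control genotype, and each gave a value for the same 10221 genes. They were made from whole embryos aged from stage 16 to the filling of the trachea with air, in 3 separate collections of more than 200 embryos. In these embryos 1 copy of the Insc-Gal4 driver, which places the yeast activator Gal4 under the regulatory region of inscuteable, stood over chromosomes of the wild-type strain OregonR. The other 6 libraries carried the same driver with UAS transgenes of neuroblast transcription factors, and no group of the study lacked the driver. The levels below are therefore those of a driver heterozygote in which Gal4 is made in the neural stem cells, called neuroblasts, and in any other cell in which this fragment is active.

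Stage 16 and the hours after it close embryogenesis. The organs have formed, most cell divisions outside the nervous system and the germline have stopped, muscles begin to contract, and the epidermis and trachea secrete and tan the cuticle of the first larval stage before the tracheal tubes take up air. A whole embryo at this time holds muscle, epidermis, gut, fat body, blood cells, nervous system and gonad in 1 sample. In such bulk RNA, fewer cells of a type and less RNA per cell cannot be told apart.

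Levels are the authors' RPKM, the reads of a gene scaled by its transcript length and by the reads of the library, so levels of genes of different length may be set side by side. Where 3 values follow a gene they belong to controls 1, 2 and 3 in that order, and means are given with the SD over these n = 3 libraries. The deposited counts summed to 11687961, 11674585 and 11338459 reads. A count of 3 reads on a transcript of 1000 nt corresponded to 0.0326, 0.0322 and 0.0335 RPKM, and levels below that rest on 1 or 2 reads for a gene of this length. The counts, lengths and RPKM of genes with 1 transcript imply that RPKM was scaled to 2.63, 2.66 and 2.55 times the highest number of reads that the labels give for a library. The RPKM of these genes may therefore be off by a constant factor in each library, which leaves ratios between them as they are. If the same factor held for all genes, shares of the sum would be unchanged as well. Whether it holds for genes with several transcripts was not tested.

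Control 2 stood apart from controls 1 and 3. Over the 3702 genes with a mean of at least 5 RPKM, the log2 difference between libraries had an SD of 0.53 between controls 1 and 2 and 0.53 between controls 2 and 3, against 0.24 between controls 1 and 3. Control 2 was the lowest of the 3 libraries for 1494 of these genes (40.4%) and the highest for 1790 (48.4%). No pair of libraries was identical. The main results are given with and without control 2. The headers of the linear RPKM columns of controls 2 and 3 name a different driver, da, while the sample titles name Insc-Gal4 for all 3, and this was not resolved here.

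Genes of the table ranged from silent to very abundant. At least 1 RPKM was reached in all 3 libraries by 5029 of 10221 genes (49.2%), which are called detected here. At the other end, 658 genes (6.44%) were listed at 0 in all 3 libraries, and 4002 had some signal but stayed under 1 RPKM in each. The median gene stood at a mean of 1.23 RPKM and the median detected gene at 11.6 RPKM. A mean of at least 10 RPKM was found for 2716 genes, of at least 100 RPKM for 417 and of at least 1000 RPKM for 34. Without control 2, the genes at 0 numbered 1014, and 5082 were detected. Of the 658 silent genes, 358 were protein-coding and 278 were annotated as non-coding RNA genes.

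Protein-coding genes held 97.1, 97.0 and 96.8% of the summed RPKM. Of 8100 such genes 4703 were detected (58.1%), with a median level of 3.01 RPKM. Counts of detected members in the lists of protein-coding genes below are to be read beside this share. Genes annotated as non-coding RNA, apart from small nuclear and nucleolar ones, were rarely detected, at 252 of 1826 (13.8%) and a median of 0.0673 RPKM. The table holds 8100 of the 13986 protein-coding genes of the annotation used for names, so shares are shares of this table, and genes without a row, among them elav, Syt1, brp, Hml, trh, kkv and Ddc, were not analysed here.

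**Figure D1:**
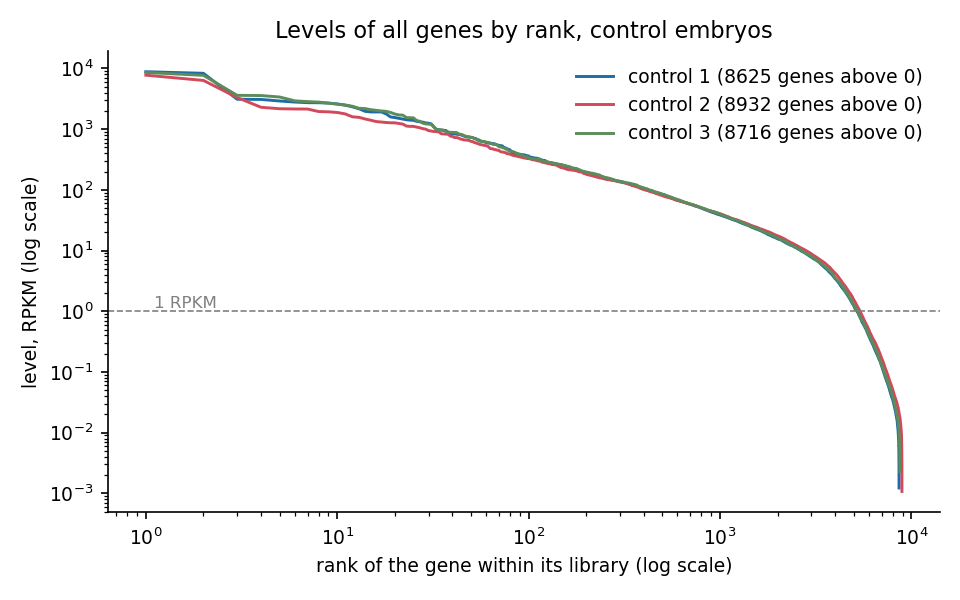
Level of each gene above 0 in RPKM (y axis, log scale) against its rank within its library (x axis, log scale), 1 line per control library, with 1 RPKM dashed. The curves of the 3 libraries nearly coincide over most of their length, control 2 lies lowest among the most abundant genes, and all cross 1 RPKM at a rank between 5191 and 5394.

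A few transcripts made up much of the message. The 30 most abundant genes held 29.1, 24.2 and 29.6% of the summed RPKM, and the 100 most abundant held 45.9, 40.1 and 46.1%. To reach 50% of the sum took 133 genes in control 1, 188 in control 2 and 133 in control 3. The message was thus spread over more genes in control 2. Transcripts at the top were short, with a median length of 899 nt over 99 of the 100 highest, against 1268 nt over all 10159 genes with a length.

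At the top stood Act57B, an actin of embryonic and larval muscle, at 8331, 7757 and 7705 RPKM (mean 7931 ± 348), and RpL41, which encodes the shortest protein of the large ribosomal subunit, at 8837, 6351 and 8593 RPKM (mean 7927 ± 1370.1). Their order was not resolved, since Act57B led in control 2 and RpL41 in controls 1 and 3. Without control 2 the mean was 8715 RPKM for RpL41 and 8018 RPKM for Act57B. Behind them came RpL31 at 3112, 2293 and 3580.4 RPKM, the first gene whose range did not reach up to that of the gene above it. This was the only one of the 30 steps among the 31 highest genes at which the ranges of neighbours did not overlap, so the order within the list is not resolved by 3 libraries.

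Of the 30 highest genes 21 encode ribosomal proteins. The others fall into a few groups. Muscle gave Act57B, Mhc (myosin heavy chain, 1270.3 ± 57.4 RPKM) and Mlp60A (a muscle LIM protein, 1263 ± 329 RPKM). Cuticle gave Lcp65Ag1, a larval cuticle protein, at 2797, 3324 and 2679.9 RPKM and Cpr51A, a chitin-binding cuticle protein, at 1306, 1000.3 and 1209 RPKM. ATPsynbeta, the catalytic subunit of the mitochondrial ATP synthase, stood at 1223, 1112 and 1202 RPKM. Thor, the binding protein that holds back the cap-binding translation factor eIF4E, stood at 1327, 833 and 1388 RPKM and was lowest in control 2. MRE16, annotated as a long non-coding RNA on the X chromosome, had 1508, 1019 and 2183 RPKM. CG13159, known only by its number, had 2725, 1599 and 2583 RPKM.

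**Figure D2:**
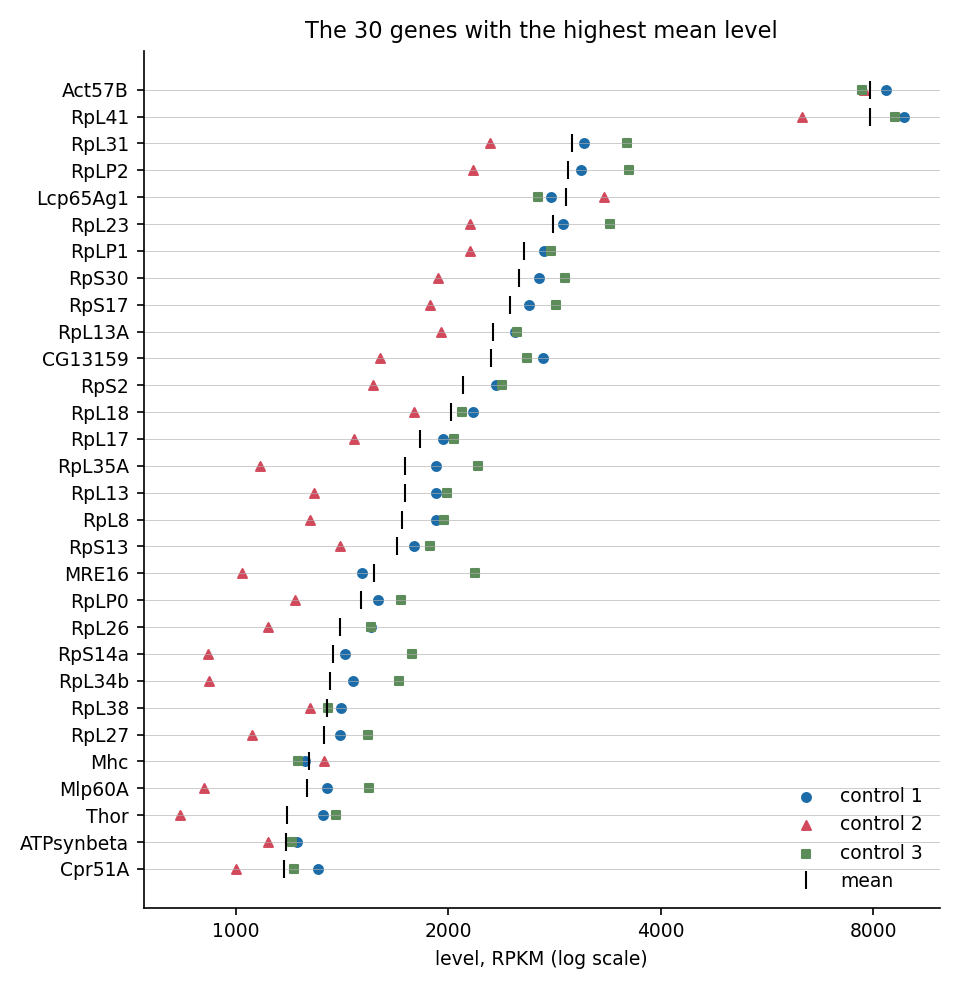
Level in RPKM (x axis, log scale) of the 30 genes with the highest mean, from the highest at the top, with 1 point for each control library and a black stroke for the mean. Control 2 is the lowest library for all 21 ribosomal protein genes and the highest for Lcp65Ag1 and Mhc.

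Ribosomal protein genes, which build the translation machinery of every cell, held a larger share of the summed RPKM than any other gene list described here. On raw counts muscle genes held more (11.3%) than ribosomal protein genes (7.44%). Raw counts are not per length, and for some genes they hold few of the reads behind the RPKM. RpL31 (577 nt, mean 2995 RPKM) had counts of 254, 220 and 252. RpLP2 (604 nt, mean 2956 RPKM) had counts of 171693, 122013 and 194903. The 2 shares of raw counts therefore do not rank these lists. The 32 ribosomal protein genes with a row held 21.5, 17 and 22.3% of the summed RPKM, and 30 were detected, with a median of 1456 RPKM. Of these genes 26 exceeded 100 RPKM. RpLP2, one of the acidic stalk proteins, had 3088, 2171 and 3609 RPKM and RpL23 2912, 2149.7 and 3388 RPKM. Second copies were far lower. RpS28a was at 0, 0.106 and 0.11 RPKM, RpS28-like at 0.566, 0.442 and 0.551 RPKM, RpL37b at 2.16, 2.04 and 2.62 RPKM and RpS10a at 2.52, 3.17 and 2.76 RPKM. RpL37a, the main form beside RpL37b, was at 1268, 933 and 1255 RPKM. Copies were not all silent: RpS5b reached 124, 91.5 and 127 RPKM and RpS15Ab 144, 128 and 138 RPKM. RpL24-like, which is not counted as a second copy here, stood at 181, 144 and 214 RPKM. RpS14a (1428, 912 and 1779 RPKM) and RpS14b (955, 679 and 963 RPKM) are near-identical neighbours, and how reads were divided between them is not given in the sources used here. The other ribosomal protein genes among the 30 highest had means between 1332 RPKM for RpL27 and 2558 RPKM for RpLP1. All 27 members with a mean of at least 5 RPKM were lowest in control 2, against 40.4% of all genes at that level. Without control 2 the group held 21.9%, against 20.2 ± 2.87% over all 3 libraries.

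Muscle genes were among the most abundant of the table. All 19 muscle genes with a row, of 37 listed, were detected, 11 of them above 100 RPKM, with a median of 213 RPKM and a share of 5.92, 5.99 and 5.52% of the summed RPKM. Act57B alone took 11.3, 10.7 and 10.5% of the deposited counts, in which many other genes hold only part of their reads. The second muscle actin of the embryo, Act87E, stood at 995, 834 and 881 RPKM. Mhc had 1254, 1334 and 1223 RPKM, TpnC73F, a troponin C of larval muscle, 836, 728 and 813 RPKM, and Prm, the thick filament protein paramyosin, 586, 629.6 and 558 RPKM. The CV of these 4 genes over the libraries was at most 9.15%. Mlp60A was less even, with 1347, 900.4 and 1542 RPKM and its lowest value in control 2.

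The giant sarcomere proteins were lower per length. Projectin, encoded by bt, was at 47.7, 104 and 61.5 RPKM and the titin-like sls at 29.9, 49.8 and 38.3 RPKM, both highest in control 2. Among membrane proteins of muscle the calcium pump SERCA reached 284, 327 and 256 RPKM, the integrin subunits 98.9, 111 and 89.1 RPKM for mys and 59, 73.6 and 55.3 RPKM for if, and the glutamate receptor subunit GluRIIA of the neuromuscular junction 12.1, 15.8 and 12.1 RPKM. Genes of adult muscle were low. The flight muscle actin Act88F was at 12.7, 19.9 and 10.1 RPKM, the flight muscle troponin TpnC4 at 0.547, 0.557 and 0.634 RPKM and flightin (fln) at 0.19, 0.219 and 0.324 RPKM. The actins thus spanned a wide range: Act57B, the cytoplasmic Act5C (1088, 1244 and 1085 RPKM) and Act87E were high and Act88F low. Coding regions of actins are alike, and reads shared between them may have been divided in a way that is not stated.

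Structural cuticle proteins, which bind chitin and set the mechanical properties of the larval skin, held 4.39, 4.88 and 4.01% of the summed RPKM. Of 75 genes with a row 53 were detected (70.7%), against 58.1% of all protein-coding genes. Their means ran from 0.018 to 2934 RPKM: 17 exceeded 100 RPKM while 19 stayed under 1 RPKM. Genes named for cytological region 65A led, with 10 of 12 detected and 1.92, 2.36 and 1.77% of the sum. Beside Lcp65Ag1 these were Cpr65Ax2 at 727, 769 and 742 RPKM and, chosen after their values were seen, Lcp65Ae at 597, 665 and 490.3 RPKM and Lcp65Af at 343, 354 and 276 RPKM, whereas Cpr65Aw of the same region was at 0.097, 0 and 0.0497 RPKM. In region 47E, Cpr47Eg had 951, 1309 and 968 RPKM and was highest in control 2. Its neighbour by name, Cpr47Ed, was at 0, 0.119 and 0.106 RPKM.

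Tweedle proteins, a cuticle family that shapes the body of the larva, were detected for 10 of 11 genes. TwdlY led with 599, 460.3 and 538 RPKM, followed by TwdlW with 325, 251 and 308 RPKM, and the defining marker TwdlX was at 114, 78.1 and 105 RPKM. Tb, the Tweedle gene behind the short Tubby body, had 114, 81 and 91.9 RPKM. The larval cuticle genes Lcp1, Lcp2 and Lcp9, by contrast, were all under 1 RPKM in each library, with means of 0.743, 0.688 and 0.26 RPKM. The pupal cuticle gene Pcp was at 0.212, 0.419 and 0.405 RPKM, and resilin, the elastic protein of hinges and tendons, at 0.208, 0.0927 and 0.10 RPKM.

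Genes that make and arrange chitin were all detected, 12 of 12 with a row of 25 listed, with a median of 117 RPKM. The chitin deacetylases verm and serp, which are secreted into the tracheal lumen and the cuticle, stood at 826, 688 and 683 RPKM for verm and 381, 353 and 327 RPKM for serp. Idgf6, a chitinase-like protein, had 475, 393 and 452 RPKM and obst-A, a chitin-binding scaffold protein of the cuticle, 432, 331 and 365 RPKM. The supply of the sugar substrate was represented by mmy, at 175, 138 and 144 RPKM. The membrane protein knk, needed to arrange chitin fibres, was at 23.9, 22.8 and 23.4 RPKM. CS-2, the chitin synthase of the gut, was lowest of the list, at 2.72, 3.25 and 2.7 RPKM.

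Tanning genes were detected for 11 of 11 with a row, of 16 listed, at a median of 12.3 RPKM. The oxidase laccase2, which cross-links cuticle with catechols, had 72.9, 77.4 and 59.3 RPKM. Tyrosine hydroxylase, encoded by ple, which also serves dopamine neurons, had 49.3, 43 and 45.5 RPKM and the pigment gene y 34.1, 44.7 and 31.4 RPKM. Pu, GTP cyclohydrolase, which supplies the cofactor of tyrosine hydroxylase, was at 26.3, 29.5 and 25.4 RPKM. The enzymes ebony and tan, which act on dopamine derivatives in opposite directions, were lower, at 8.42, 9.37 and 8.04 RPKM for e and 4.91, 6.63 and 5.58 RPKM for t. None of the tanning genes went beyond a 2-fold range between libraries. Of all genes with a mean of at least 5 RPKM only 5.97% did.

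Osiris genes, most of which lie in 1 cluster on chromosome arm 3R and which encode secretory pathway proteins of cuticle-forming cells, split sharply. Of 17 genes, 4 exceeded 100 RPKM: Osi15 at 979.8, 650.4 and 899, Osi20 at 617, 323 and 592, Osi14 at 588, 299 and 636 and Osi19 at 459.7, 273 and 482 RPKM. The other 13 ran from 0.0192 to 17.7 RPKM, 7 of them under 1 RPKM. Their share of the sum was 1.07, 0.683 and 1.04%, and all 8 members with a mean of at least 5 RPKM were lowest in control 2, against 40.4% of all genes. Among genes of the trachea without a role in chitin, the matrix metalloprotease Mmp1 was at 35.7, 66.4 and 35.8 RPKM, the transcription factor peb at 12.8, 16.7 and 13.8 RPKM and the FGF receptor btl, which guides tracheal branching earlier, at 3.0, 2.73 and 2.23 RPKM.

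The midgut was marked by digestive enzymes. Of 45 genes with a row 38 were detected (84.4%), against 58.1% of all protein-coding genes. The list held 0.43, 0.646 and 0.487% of the summed RPKM. Jon65Aiv, a serine protease of the Jonah family, had 132, 165 and 136 RPKM, the maltase Mal-A3 132, 130.2 and 131 RPKM, the midgut membrane protein mex1 119, 118 and 129.7 RPKM and the protease yip7 101, 97.1 and 97.9 RPKM. The midgut transcription factor GATAe was at 44.3, 38.4 and 43.3 RPKM and the Hox factor lab, which specifies copper cells of the middle midgut, at 9.77, 9.22 and 9.35 RPKM. The starch-digesting amylases were low, with 4.9, 11 and 6.53 RPKM for Amy-p and 2.13, 4.28 and 2.19 RPKM for Amy-d. Jonah proteases varied between libraries. All 11 with a mean of at least 1 RPKM were highest in control 2, against 50.2% of all genes at that level, for example Jon99Cii with 26.7, 96.4 and 48.3 RPKM, and their sum was 0.113, 0.264 and 0.156% of the summed RPKM. The sum of the trypsins, counted with yip7, was more even, at 0.171, 0.174 and 0.192%. The means of these 11 genes ran from 4.43 to 158 RPKM. Among them zetaTry was at 54.5, 55.7 and 68.9 RPKM and lambdaTry at 44.4, 42.4 and 49.5 RPKM. Single trypsins went either way: 6 of 11 were highest in control 2, such as epsilonTry at 8.25, 29.7 and 18.2 RPKM and betaTry at 3.78, 11.3 and 4.02 RPKM, and 4 were lowest there. The members of the Jonah and trypsin families are similar in sequence, and values of single copies are uncertain in that respect.

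The fat body was represented by genes of lipid handling. The lipoprotein gene apolpp, a defining marker, had 238, 320.02 and 248 RPKM, the desaturase Desat1 93.4, 122 and 91.4 RPKM, the lipase bmm 39.4, 32.2 and 37.7 RPKM and the lipid droplet protein Lsd-1 16.2, 26.9 and 20.03 RPKM. Mtp, which loads lipid onto lipoproteins, had 20.7, 27.5 and 19.8 RPKM. Storage proteins that the fat body makes in the late larva were near the lower limit. Lsp2 was at 1.0, 0.336 and 0.912 RPKM, Lsp1beta at 0.00812, 0.0161 and 0.0167 RPKM, Lsp1alpha at 0.0166, 0 and 0 RPKM, Fbp1 at 0.0317, 0.0377 and 0 RPKM and Fbp2 at 0.023, 0.070 and 0.0236 RPKM. In all, 7 of 14 fat body genes were detected (50%), against 58.1% of all protein-coding genes.

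Blood cells were marked by both of their main classes. Crystal cells carry the prophenoloxidases that blacken wounds, and they stood at 69.8, 56.4 and 65.5 RPKM for PPO1 and 73.1, 51.9 and 69.9 RPKM for PPO2. The crystal cell factor lz was itself at 0.435, 0.561 and 0.335 RPKM. Of the macrophage-like plasmatocytes, the peroxidasin Pxn had 33.6, 29.8 and 33.8 RPKM, the engulfment receptor NimC4 28, 21.6 and 26.7 RPKM and the scavenger receptor crq 18.1, 20.4 and 15.6 RPKM, while the larval receptor NimC1 was at 4.22, 4.13 and 3.58 RPKM and eater at 0.188, 0.449 and 0.295 RPKM. PPO3, of the lamellocytes that appear after wasp attack, was at 0.039, 0.0916 and 0.0903 RPKM. Embryonic plasmatocytes and the fat body lay down basement membrane, and all 12 genes of that list with a row, of 14 listed, were detected, 11 of them above 100 RPKM. SPARC, a collagen-binding glycoprotein, led with 633, 475 and 627 RPKM. The collagen IV chains Col4a1 and vkg stood at 576, 527 and 623 RPKM for Col4a1 and 368, 349 and 380.2 RPKM for vkg, and Plod, which hydroxylates collagen, at 197, 133 and 179 RPKM. The laminin chains LanB1, LanB2 and LanA had 127, 139 and 119 RPKM on average, nidogen (Ndg) 166 RPKM and perlecan (trol) 119 RPKM. The list held 1.1, 1.13 and 1.07% of the summed RPKM, and its share was close to equal in the 3 libraries.

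The nervous system was seen at lower levels. All 20 neuronal genes with a row, of 40 listed, were detected, at a median of 12.2 RPKM and 0.219, 0.313 and 0.222% of the summed RPKM. None of the 4 defining markers of neurons had a row. The calcium-dependent kinase CaMKII was highest, at 207, 269 and 200.03 RPKM, and is also made in other tissues such as muscle. The neuronal RNA-binding protein fne had 63.3, 80.7 and 70.4 RPKM, the amyloid precursor homologue Appl 56.1, 83.6 and 62.6 RPKM and Phm, which amidates neuropeptides, 43.8, 43.2 and 43.8 RPKM. Of the ion channels, the sodium channel para was at 10.5, 20.9 and 12.6 RPKM and the potassium channel Sh at 8.41, 16.3 and 11.9 RPKM. Transmitter genes were spread from ChAT (acetylcholine, 7.65, 9.86 and 8.31 RPKM) and VGAT (GABA, 11.4, 11.8 and 10.7 RPKM) to Trh (serotonin synthesis, 4.09, 4.69 and 4.16 RPKM) and SerT (serotonin uptake, 2.49, 2.98 and 3.04 RPKM). The values were highest in control 2 for 15 of the 16 neuronal genes with a mean of at least 5 RPKM. Over all genes at that level control 2 was highest for 48.4%.

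Neuropeptide genes, each active in a few cells, were detected for 18 of 22 with a row (81.8%), against 58.1% of all protein-coding genes. Ilp4, an insulin-like peptide that the embryo also makes in mesoderm and midgut, had 21.2, 15.3 and 21.7 RPKM. AstC had 14.3, 15.7 and 14.3 RPKM, Dh31 12.2, 16.8 and 14.5 RPKM and Proc 11.5, 16.4 and 11.7 RPKM. ETH, the ecdysis-triggering hormone of the tracheal Inka cells, was at 12.4, 10.7 and 14.3 RPKM and Pdf, made by clock neurons among others, at 6.12, 6.72 and 8.04 RPKM. Glial genes were few in the table, 5 of 18, and all were detected. The sodium pump subunit nrv2 stood at 192, 198 and 185 RPKM, the septate junction proteins sinu at 67.9, 66.9 and 60.1 RPKM and Gli at 39.7, 40.7 and 37 RPKM, the midline and cortex glia protein wrapper at 15.2, 10.3 and 13.9 RPKM and the glial master factor repo at 6.86, 9.04 and 7.15 RPKM. The proteins sinu, Gli and nrv2 also belong to epithelial septate junctions.

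Genes of neural stem cells were mostly detected, at 13 of 15 (86.7%), against 58.1% of all protein-coding genes. Their median of 4.36 RPKM lay between the 3.01 RPKM of all protein-coding genes and the 11.6 RPKM of all detected genes. The 4 defining markers were mira, the adaptor that segregates cell fate determinants, at 14.2, 10.2 and 12.4 RPKM, dpn at 4.41, 4.08 and 4.94 RPKM, wor at 2.98, 2.56 and 3.11 RPKM and ase at 2.45, 2.4 and 2.35 RPKM. The achaete-scute gene ac, which acts when neuroblasts form, was at 0.0474, 0.117 and 0.0244 RPKM, and l(1)sc at 0.337, 0.216 and 0.265 RPKM. Of the 6 genes that the study misexpressed elsewhere, the Sox factor SoxN stood highest here, at 20.3, 24.8 and 20.4 RPKM, although its deposited count was 0 in all 3 libraries, followed by the POU factor nub at 18.4, 17.9 and 18.8 RPKM. Kr, a gap gene reused in neuroblast timing, muscle and Malpighian tubule, had 6.61, 8.2 and 6.91 RPKM. The zinc finger gene hb, the first factor of the neuroblast temporal series, had 1.72, 1.55 and 1.4 RPKM. Between neighbours in the order SoxN, nub, Kr, wor, ase, hb the ranges over 3 libraries did not overlap. RNA of all 6 was thus present in embryos without a UAS transgene.

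Cell division genes were mostly detected, at low levels. Of 32 mitosis genes 26 were detected (81.25%), against 58.1% of all protein-coding genes. Their median was 2.49 RPKM and their highest mean 20.1 RPKM, that of the Cdc25 phosphatase stg (21.7, 19.98 and 18.7 RPKM). The checkpoint protein Bub3 had 17.9, 13.5 and 16.2 RPKM and the cyclin CycA 12.7, 10.5 and 11.2 RPKM. Topoisomerase II, Top2, was at 9.06, 8.45 and 8.56 RPKM. Replication genes were alike, with 13 of 14 detected (92.9%) at a median of 4.47 RPKM. They were led by RnrL, the large subunit of ribonucleotide reductase, at 13.1, 18.1 and 13 RPKM and by Mcm7 of the replicative helicase at 10.7, 6.38 and 9.3 RPKM. The licensing factor dup had 7.8, 7.39 and 6.95 RPKM and dpa, another subunit of that helicase, 7.09, 6.24 and 7.11 RPKM. Of the 29 mitosis genes with a mean of at least 1 RPKM, 18 were lowest in control 2, against 36.9% of all genes at that level.

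Of 17 early patterning genes 11 were detected (64.7%), a share near the 58.1% of all protein-coding genes. None of the 17 was at 0 in all 3 libraries, against 4.42% of all protein-coding genes. The pair-rule gene h, which is reused later in other tissues, was highest at 48.9, 88 and 49 RPKM, followed by cad, reused in the hindgut, at 18.2, 20.5 and 17.4 RPKM and the mesoderm and neuroblast factor sna at 11.4, 10.8 and 9.84 RPKM. The pair-rule genes slp1, run and eve were lower, with means of 6.28, 3.55 and 2.36 RPKM. Others were near 0. The maternal anterior determinant bcd was at 0.0818, 0.0408 and 0.00507 RPKM, the pair-rule gene ftz at 0.0612, 0.0666 and 0.0378 RPKM and the dorsal gene zen at 0.0343, 0 and 0.0177 RPKM. Segment polarity and Hox genes were low and steady, 8 of 9 detected at a median of 5.68 RPKM. The Hedgehog pathway factor ci had 18.3, 28.8 and 19.4 RPKM, its receptor ptc 8.08, 7.89 and 7.12 RPKM, wg 6.72, 6.06 and 6.76 RPKM and en 6.16, 4.87 and 6.02 RPKM. Of the Enhancer of split complex, targets of Notch, E(spl)mbeta-HLH was highest at 30.1, 28.9 and 28.3 RPKM, followed by E(spl)m6-BFM at 8.71, 9.22 and 8.72 RPKM, E(spl)m2-BFM at 8.42, 8.28 and 7.57 RPKM and E(spl)malpha-BFM at 5.37, 3.29 and 5.28 RPKM.

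Small organs were visible through single genes. The heart factor Hand had 32.9, 35.2 and 35.4 RPKM, and Dot, a gene of pericardial cells and lymph gland, 12, 10.5 and 10.7 RPKM. The nuclear receptor svp, which marks the inflow cells of the heart, had 16, 18.1 and 15.6 RPKM and the heart transporter Sur 8.59, 12.2 and 8.34 RPKM. The salivary gland was marked by PH4alphaSG1, a prolyl hydroxylase, at 6.5, 4.52 and 6.05 RPKM and by the factor sage at 4.56, 4.38 and 4.1 RPKM, with the duct factor eyg at 2.22, 2.33 and 2.41 RPKM. Its glue genes of the last larval stage were low: Sgs5 and ng2 were listed at 0 in all 3 libraries, Sgs3 was at 0.118, 0.203 and 0.0908 RPKM and Sgs7, the highest of them, at 1.59, 2.24 and 1.71 RPKM. For the Malpighian tubule, the anion transporter Prestin had 23, 33.6 and 20.1 RPKM, the potassium channel Irk2 18.3, 26.2 and 25 RPKM and the transporter gene w 107, 41.8 and 117 RPKM. The value of w in control 2 was the lowest by more than 2-fold. The urate oxidase gene Uro, of the third instar and adult tubule, was at 0.0172, 0.145 and 0.0177 RPKM.

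Germline genes ranged widely. The germ cell marker vas had 3.14, 2.81 and 3.52 RPKM, the gap junction gene zpg 1.43, 1.25 and 1.68 RPKM and nos 0.579, 0.984 and 0.914 RPKM. Higher in the list were gcl, at 73.2, 65.9 and 65.4 RPKM, and tud, at 22.2, 31.3 and 20.5 RPKM, for which expression outside the germline cannot be told apart in whole embryos. The RNA-binding protein bru1 was at 12.2, 14.6 and 12.8 RPKM and grk, the EGF receptor ligand of the oocyte, at 11.8, 11.4 and 11.9 RPKM. The oocyte determinant osk was at 0.0883, 0.107 and 0.0502 RPKM and bam, the switch of germ cell differentiation, at 0.122, 0.773 and 0.156 RPKM. In steroid synthesis, which takes place in the ring gland, phm had 6.33, 4.53 and 5.75 RPKM, nvd 1.84, 2.16 and 1.6 RPKM, sad 0.637, 0.424 and 0.656 RPKM and spo 0.0747, 0.0571 and 0.0288 RPKM. Npc1a, a sterol transporter used in many cells, was highest of that list at 29.6, 30.1 and 25.5 RPKM, with Start1, of sterol transfer, at 13, 10.9 and 12.7 RPKM. Among genes of the ecdysone response, the nuclear receptor ftz-f1, which follows the ecdysone pulse and is needed for cuticle formation, was at 137, 173 and 131 RPKM and the secreted protein ImpE2 at 146, 133 and 134 RPKM. The early gene Eip74EF had 26.1, 36.3 and 22.9 RPKM, the ecdysone-dependent cuticle gene Edg78E 26.8, 32.1 and 23.7 RPKM and Eip93F, a factor of metamorphosis, 0.34, 0.199 and 0.352 RPKM.

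**Figure D3:**
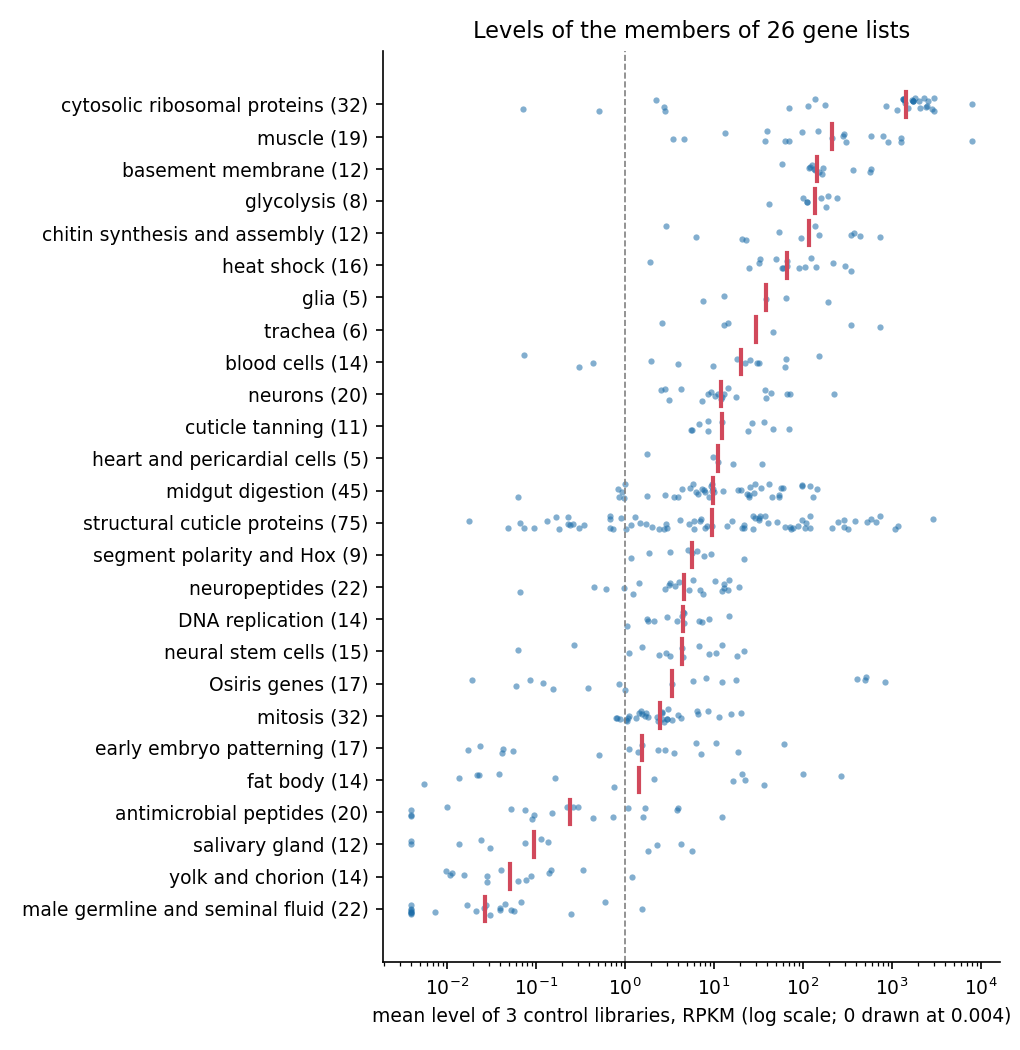
Mean level over 3 control libraries in RPKM (x axis, log scale, zeros drawn at the left edge) of the members of gene lists, 1 point per gene, the median of a list in red, the number of members with a value in brackets and 1 RPKM dashed. Ribosomal proteins, muscle and basement membrane lie far to the right, cuticle and Osiris genes spread over the whole axis, and genes of yolk, chorion and male germline lie left of 1 RPKM with few exceptions.

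Energy metabolism was strongly represented. Respiratory chain and ATP synthase genes held 2.99, 2.51 and 3.16% of the summed RPKM. In this list the main subunits and their second copies, recognised by a final L in the symbol, stood apart: 27 of 28 main forms were detected at a median of 161 RPKM, against 0 of 14 second copies, whose means ran up to 0.467 RPKM. Cytochrome c, Cyt-c-p, had 745, 838 and 821 RPKM and COX5A of complex IV 549, 372 and 606 RPKM, with ATPsynG of the ATP synthase at 535, 345 and 603 RPKM, whereas the copy ATPsynbetaL was at 0, 0.0317 and 0.011 RPKM beside ATPsynbeta at 1179 RPKM. ND-24L and ND-B14.5AL were listed at 0. The proteasome showed the same division, with 9 of 9 main subunits detected between 21.0 and 46.3 RPKM and 0 of 8 copies marked R or T, all under 1 RPKM. Prosbeta7 had 50.7, 39.3 and 48.9 RPKM, Prosalpha2 47.2, 43 and 47.9 RPKM, Rpn11 44.8, 37 and 44.3 RPKM and Rpn13 42.6, 35.2 and 40.9 RPKM, against Prosalpha6T 0, 0 and 0.0219 RPKM. Of 18 genes of the vacuolar ATPase, the proton pump of acid organelles, 8 were detected, led by Vha13 at 669.9, 581 and 739.97 RPKM and then VhaAC45, VhaPPA1-1 and Vha36-1 with means of 294, 281 and 269.8 RPKM, and 10 stayed under 1 RPKM, with Vha100-3, Vha16-2 and Vha16-5 at 0. Several of these second copies are known from the testis. They were grouped after their values were seen.

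Glycolytic enzymes were all detected, 8 of 8 with a row, from 42.2 to 243 RPKM. Gapdh1 had 255, 209.9 and 265 RPKM, Tpi 204, 144 and 227 RPKM and Eno 172, 188 and 191 RPKM, and the mutase Pglym78 161, 142 and 180.3 RPKM. Mitochondrial ribosomal proteins were narrow in range, with all 12 between 38.4 and 147 RPKM, led by mRpS5 at 138, 181 and 123 RPKM and then mRpS22, mRpS11 and mRpL33 with means of 64.9, 62.7 and 59.8 RPKM. The tubulin betaTub56D, used in most cells, stood at 535, 422 and 515 RPKM, betaTub60D, of differentiating muscle and sensory cells, at 102, 90.8 and 98.8 RPKM, gammaTub23C, of the centrosome, at 4.03, 3.47 and 4.3 RPKM and the testis tubulin betaTub85D at 0.661, 0.648 and 0.51 RPKM.

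Families of later life were close to silent. Against 58.1% of all protein-coding genes, 1 of 52 gustatory receptor genes was detected, 3 of 50 odorant receptor genes and 4 of 48 ionotropic receptor genes. Orco, the coreceptor that the larval olfactory neurons need, had 1.41, 2.03 and 1.68 RPKM. Or19b had 4.26, 4.83 and 3.79 RPKM and its near-identical copy Or19a 1.37, 2.12 and 1.06 RPKM. Ir85a, the highest ionotropic receptor, had 2.57, 7.62 and 2.94 RPKM, with control 2 above the others, and Gr59f, the only gustatory receptor detected, 1.75, 1.4 and 1.3 RPKM. Next came the ionotropic receptors Ir87a, Ir76a and Ir21a with means of 1.58, 1.47 and 1.46 RPKM, the odorant receptor Or43b with 0.957 RPKM and the gustatory receptors Gr39a, Gr59e and Gr28b with 1.34, 0.909 and 0.753 RPKM. Without control 2 the mean was 2.75 RPKM for Ir85a, against 4.37 RPKM with it, and 0.713 RPKM for Gr39a. Receptors of this kind are each made by a handful of cells, so a low level in whole embryos does not say that the cells lack them. Listed at 0 in all 3 libraries were 8 gustatory, 3 odorant and 5 ionotropic receptors, among them Gr10b, Gr22b, Or33a, Or67b, Ir64a and Ir84a.

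Reproductive genes were at similarly low levels. Of 22 genes of male germline and seminal fluid 1 was detected, Mst87F, a protein of the sperm tail, at 1.85, 1.3 and 1.51 RPKM. Next came betaTub85D, Acp98AB and Mst77F at means of 0.606, 0.247 and 0.068 RPKM, and 7 were at 0, among them Acp62F, Mst57Db, Mst57Dc and Mst84Da. Of 21 seminal fluid genes with the prefix Sfp none reached 1 RPKM in all libraries, Sfp78E led with a mean of 0.848 RPKM, ahead of Sfp60F, Sfp84E and Sfp65A with 0.204, 0.0951 and 0.0664 RPKM, and Sfp24F, Sfp33A4 and Sfp35C were at 0. Yolk and chorion genes had a median of 0.052 RPKM over 14 genes, and Yp3 alone was detected, at 1.17, 1.05 and 1.39 RPKM, ahead of Cp18, Vm34Ca and Cp38 with means of 0.338, 0.149 and 0.143 RPKM. Photoreceptor genes had a median of 0.113 RPKM over 9 genes. Detected among them were the rhodopsins Rh5 (1.91, 2.75 and 2.3 RPKM) and Rh6 (2.2, 2.99 and 2.66 RPKM), which are those of the larval eye, whereas the adult rhodopsins ninaE, Rh3 and Rh4 had means of 0.0703, 0.00515 and 0.113 RPKM. Arr2 and ninaC, of signal shut-off in photoreceptors, had means of 0.547 and 0.426 RPKM. Rh5 and Rh6 were above ninaE, Rh3 and Rh4 in every library.

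**Figure D4:**
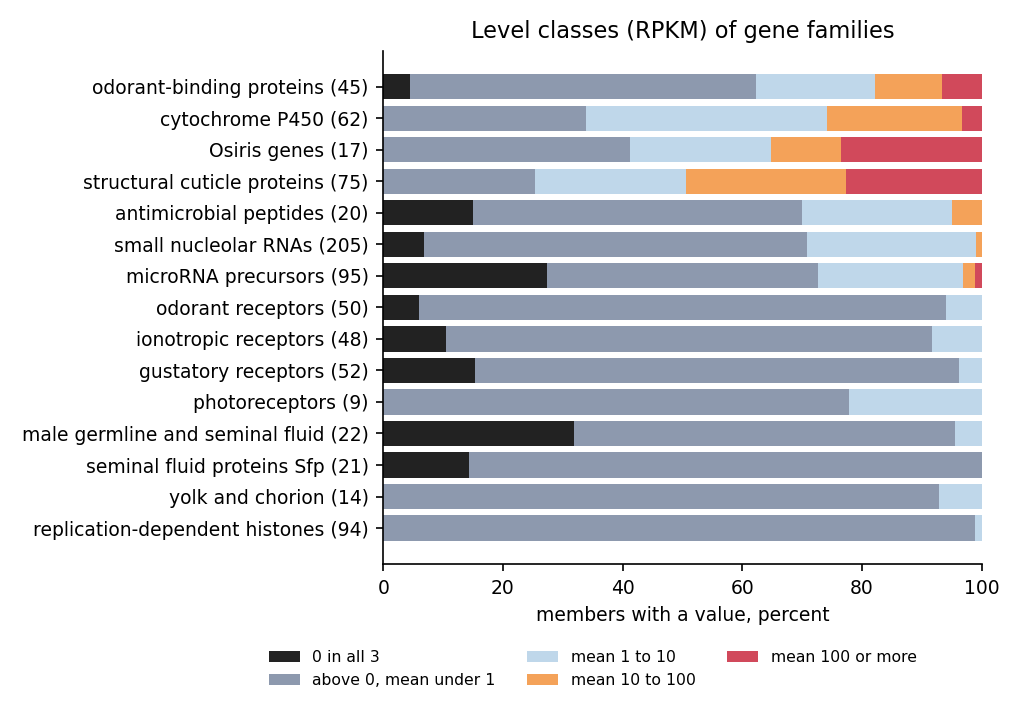
Percent of the members with a value (x axis) of 15 gene families that fell in each class of mean level over 3 control libraries, from 0 in all 3 (black) to 100 RPKM or more (red), with the number of members in brackets. Receptors, seminal fluid, yolk and histone genes lie almost wholly below 1 RPKM, while cuticle, Osiris and odorant-binding protein genes cover every class above 0.

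Small and unusual RNA genes were also low. Of 205 small nucleolar RNA genes 40 were detected (19.5%), against 49.2% of all genes, and 14 were at 0, with a median of 0.47 RPKM. Of 95 microRNA precursor genes 9 were detected (9.47%), against 13.8% of the genes annotated as non-coding RNA, and 26 were at 0. The highest precursor, mir-9381, had 120.1, 66.1 and 188 RPKM, ahead of mir-4954, mir-9382 and mir-283 with means of 26.3, 11.8 and 6.57 RPKM. The mean of mir-9382 was 6.35 RPKM without control 2. For genes this short, RPKM rests on few positions and on how the library kept short fragments, which the labels do not state. Replication-dependent histone genes, whose messages lack a poly(A) tail, had means of 0.103 to 1.05 RPKM over 94 rows, and none was detected. These 94 rows are near-identical copies, and how their reads were assigned or whether the library selected poly(A) RNA is not given in the sources used here.

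Both roX RNAs, which coat the male X chromosome in dosage compensation, were present in these collections, which the labels do not divide by sex. roX1 had 86.6, 111 and 98.2 RPKM and roX2 5.08, 7.42 and 5.87 RPKM. The complex's male-specific protein msl-2 had 4.29, 6.29 and 4.68 RPKM. Detected protein-coding genes of the X chromosome had a median level of 11.6 RPKM over 710 genes, and those of chromosomes 2 and 3 a median of 12.3 RPKM over 3950 genes. By arm of chromosomes 2 and 3 the medians ran from 11.3 RPKM on 3R to 13.6 RPKM on 3L. In controls 1 and 3 the X lay within the range of the arms, while in control 2 its median of 11.4 RPKM was below that of each arm, which ran from 12.1 RPKM on 3R to 15.2 RPKM on 3L. Chromosome 4, which is small and largely heterochromatic, differed: 43 of its 45 protein-coding genes with a row were detected (95.6%), at a median of 29.4 RPKM. On chromosomes 2 and 3 the share detected was 57.8%. Its medians were 26.9, 35.4 and 26.1 RPKM in controls 1, 2 and 3. Only 8.89% of these genes have 1 annotated transcript, against 56.2% on chromosomes 2 and 3, where detected genes with several transcripts had a median of 14.7 RPKM. Beside ATPsynbeta, apolpp and CaMKII, it carries ci and bt.

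Spread between libraries was moderate for most genes. Over the 3702 genes with a mean of at least 5 RPKM the median CV was 12.4%, and in 90% of them it was at most 30.3%. For 1831 genes with enough reads, counting error alone would give a median CV of 2.86%, against 14.5% observed. The highest and the lowest library differed more than 2-fold for 221 genes (5.97%), and in 181 of these control 2 was the library farthest from the median. In 130 of these 181, control 2 was the high one. Without control 2 the 2-fold count was 36 genes and the median CV 4.67%. Without control 1 it was 151 genes and without control 3 it was 174.

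The deviation of control 2 went with transcript length. Genes with a longest transcript of 500 to 1000 nt had a median log2 deviation of -0.11 in control 2 from the mean of the 3 libraries, over 652 genes. Over 382 genes with transcripts longer than 5000 nt the median deviation of control 2 was 0.28, against -0.14 in control 1 and -0.14 in control 3. Gene lists followed the same order in part. Respiratory chain genes, with a median transcript length of 807 nt, had a median deviation of -0.40 in control 2. Ribosomal proteins, at 825 nt, had one of -0.32, and neuronal genes, at 5151.5 nt, one of 0.26. Heat shock genes departed from this order, with a median length of 2231 nt and a deviation of -0.66. The part of transcript length in the list values above was not tested.

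**Figure D5:**
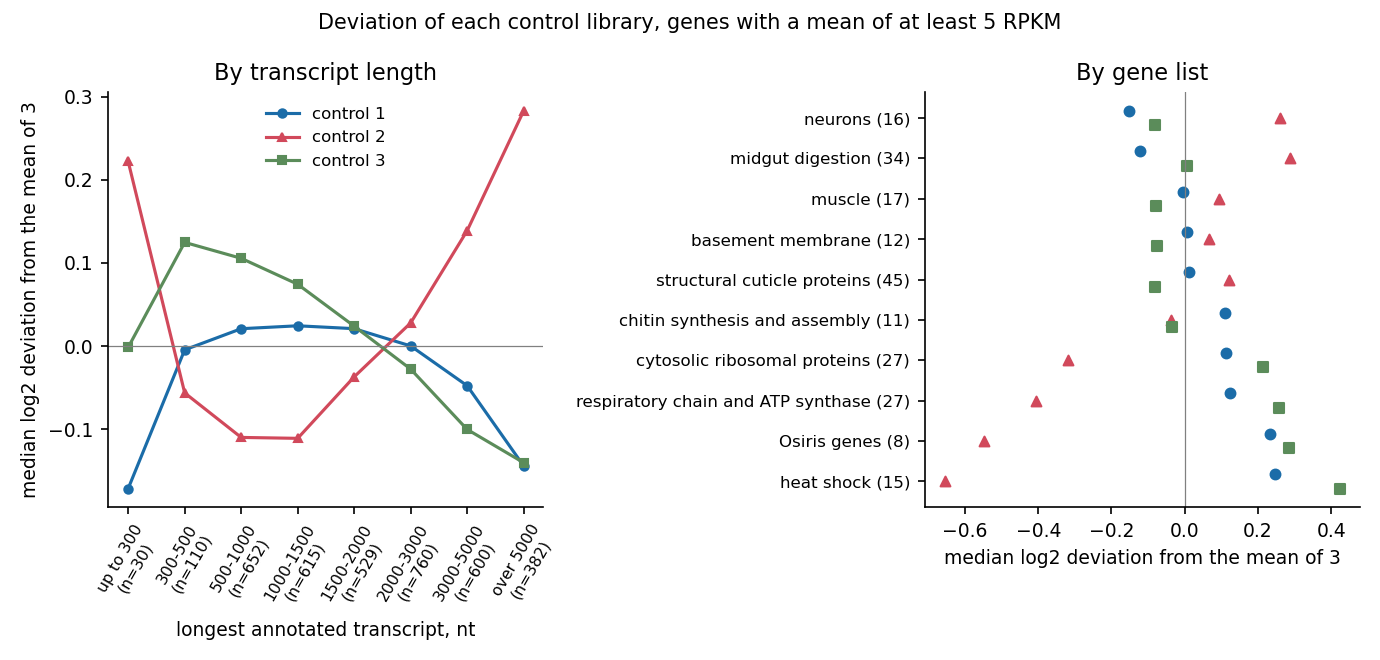
Median log2 deviation of each control library from the mean of the 3, by length of the longest annotated transcript (left) and by gene list (right, number of genes in brackets), for genes with a mean of at least 5 RPKM and a pseudocount of 0.1 RPKM. Control 2 lies below 0 for short transcripts other than the shortest class and above 0 for long ones, and below 0 for heat shock, Osiris, respiratory chain and ribosomal protein genes.

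Heat shock genes shifted together. All 15 with a mean of at least 5 RPKM were lowest in control 2, against 40.4% of all genes, and their share of the summed RPKM was 0.789, 0.448 and 0.844%. The chaperone Hsp83 was at 379, 295 and 386 RPKM. The small heat shock proteins were at 375, 131 and 394 RPKM for Hsp26, 264, 111 and 284 RPKM for Hsp23 and 114, 21.9 and 136 RPKM for Hsp27. The Hsp70 genes moved alike, with Hsp70Ab at 156, 94.4 and 176 RPKM, Hsp70Bbb at 65.2, 27.7 and 82.9 RPKM and Hsp70Bc at 58.3, 24 and 69.8 RPKM, although these near-identical copies may share reads. In the fly, small heat shock genes are known to be transcribed during development without stress as well.

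Other genes differed between libraries in either direction. Gadd45, a stress and damage response gene, had 17, 131 and 18.5 RPKM, the widest range of any gene with a mean of at least 50 RPKM, and a mean of 55.5 RPKM that was 17.7 RPKM without control 2. Immune-induced peptides of the Bomanin type had 5.96, 28.1 and 1.64 RPKM for IM1, 10.8, 44.1 and 3.53 RPKM for IM2 and 16.6, 49.2 and 1.7 RPKM for IM3, and all 6 IM genes other than IM33 with a mean of at least 1 RPKM were highest in control 2 and lowest in control 3, against 24.2% of all genes at that level. IM4 had 4.77, 17.1 and 1.25 RPKM. The means of IM1, IM2, IM3 and IM4 were 3.8, 7.18, 9.17 and 3.01 RPKM without control 2, against 11.9, 19.5, 22.5 and 7.7 RPKM with it. IM33, a different kind of peptide, was even, at 582, 552 and 704 RPKM. Antimicrobial peptides were low: 5 of 20 were detected (25%), against 58.1% of all protein-coding genes. The highest, Drsl5, had 15.5, 6.11 and 15.6 RPKM and was lowest in control 2, as was Drsl2 with 2.02, 1.16 and 1.88 RPKM. Drs, with 2.39, 8.22 and 1.39 RPKM, was highest there, and Mtk was even, with 3.81, 3.89 and 3.92 RPKM, while DptA, Drsl1 and Drsl3 were at 0. Prx2540-2, a peroxiredoxin with near-identical copies, had 489, 171 and 510.2 RPKM and was lowest in control 2. CG42815 had 2.42, 33.6 and 17.7 RPKM, CG43390 36, 103 and 43.9 RPKM and CG15068 2.09, 12.8 and 0.904 RPKM. Single genes were near or at 0 in 1 or 2 libraries: CG1809 had 19.5, 0 and 19.2 RPKM and CG43153 0.596, 21.7 and 0.66 RPKM, both set apart by control 2, and CG34164 had 13.6, 12.8 and 0.667 RPKM, set apart by control 3. The cause of these differences between libraries of 1 genotype was not tested.

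RPKM and the deposited counts did not always describe the same reads. In 5357 of the 6284 genes with 1 annotated transcript the count could be rebuilt from RPKM and length with 1 scale factor for each library, to within 0.1% or 0.5 reads. In 260 detected genes the count was 0 in all 3 libraries although the RPKM was at least 1, SoxN, Ppn and ovo among them. The levels above therefore rest on RPKM.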

How the data were processed

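RNA was extracted from whole embryos with a column kit and sequenced in 150 bp reads on an Illumina HiSeq2500, per the labels' protocols. The authors deposited 1 table of 10221 genes with a raw read count, a linear RPKM and a log2 RPKM for each library. Per the file headers the count and log2 columns carry the control's name, while the linear RPKM columns of controls 2 and 3 name the driver da. The aligner, counter, genome build, annotation and use of strand are not given in the sources used here. Coordinates are therefore left out, and values of overlapping genes and near-identical copies are uncertain in read assignment. The deposited log2 RPKM, which equals the linear RPKM within 1% or 0.001 RPKM, was converted to the linear scale with its floor value set to 0.

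The 3 libraries were taken as replicates, as titled. Nothing but the labels says that the collections were independent, and no groups were compared, so no test was run. A gene was called detected at 1 RPKM or more in all 3 libraries. Spread was taken as CV and as the range of log2(RPKM + 0.1) over genes with a mean of at least 5 RPKM. Names were matched to the BDGP 6.54 annotation of Ensembl 115 (10159 of 10221 rows), used for names, biotype, chromosome arm and transcript length. Scripts ran in Python 3.11.15 with pandas 2.3.3, and TMM factors came from edgeR 4.0.16. The measures of spread and share were checked on simulated data.

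The libraries and gene lists were chosen with earlier results of these data known, and 7 lists, among them actins, respiratory chain, IM peptides and microRNA precursors, were added after the values were seen. Genes named by rule were the 30 highest, the 4 highest of each list described, up to 4 members at 0 per list, the 8 widest ranges at means of 5 and 50 RPKM and the 6 misexpressed genes. Ribosomal proteins, histones and small nucleolar RNAs named by this rule are in part given as ranges and counts. Other genes, apart from the defining markers of cell types, were chosen after their values were seen. Of 48 defining markers 29 had a row and 26 were detected. Lists describe tissues only as far as their genes are particular to them, and intervals for counting error were not computed because many counts hold part of the reads.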

Additional observations from a re-analysis of the deposited data

How the results depend on the processing

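The order of Act57B and RpL41 turned without control 2, and that of muscle and ribosomal proteins on raw counts. Of 235 named genes with a mean of at least 1 RPKM, 16 had a mean that moved by more than 1.5 times without control 2, among them CG43153, at 0.628 RPKM in place of 7.67 RPKM, and 0 without control 1 or control 3. Of the 30 highest genes 28 to 29 stayed among the 30 highest with 1 library left out, and all 30 after TMM. Genes detected numbered 5082 to 5108 with a library left out, and the rule of any level above 0 in all 3 gave 7951 in place of 5029. Genes at 0 numbered 855 to 1014 with a library left out, the highest without control 2. With a library left out the 30 highest genes held 26.7 to 29.4% and the 100 highest 43.1 to 46.0%. The median CV ran from 4.67% to 14.1% and the share of genes with a 2-fold range from 0.693% to 5.12%, the lowest in both without control 2. That share was 9.51% with a minimum mean of 1 RPKM and 21.4% on raw counts scaled to the library total.

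Shares of raw counts are not per length, which by construction favours long genes. The counts of many genes also hold only part of the reads behind their RPKM, so these shares differ from those of RPKM in more than length. On raw counts the 30 highest genes held 31.4%, ribosomal proteins 7.44%, muscle 11.3%, cuticle proteins 5.13%, the respiratory chain 1.08%, basement membrane 1.26%, neurons 0.412% and midgut digestion 0.861%. Of the other 52 lists 48 moved likewise. Leaving out small RNAs and transcripts under 300 nt moved 3 of these 52 lists. With a library left out, ribosomal proteins held 19.2 to 21.9%, muscle 5.72 to 5.95%, cuticle proteins 4.2 to 4.63%, the respiratory chain 2.75 to 3.08%, basement membrane 1.08 to 1.11%, neurons 0.220 to 0.267% and midgut digestion 0.459 to 0.567%. Depth limits statements on genes under about 0.03 RPKM, where a few reads decide between 0 and a level above it. No paired analysis was possible because 1 group was described and no result came from a test. The planned description of promoter and protein sequences by level was not run, and no sequences are printed.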

Other observations

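Detoxification genes were not described above. Of 62 cytochrome P450 genes 39 were detected (62.9%), a share near the 58.1% of all protein-coding genes. The highest were Cyp28d1 at 104, 122 and 118 RPKM and Cyp304a1 at 121, 84.7 and 131 RPKM in controls 1, 2 and 3. Cyp4g1, which makes the hydrocarbons of the cuticle in oenocytes, was at 57.1, 48.5 and 54.9 RPKM, with Cyp6a23 at 61.4, 55.2 and 58.2 RPKM and Cyp4c3 at 62.6, 54.6 and 52.9 RPKM, and at the other end Cyp308a1 was at 0.0136, 0.0135 and 0 RPKM. Of 26 glutathione S-transferase genes 22 were detected. GstT4 had 243, 145 and 217 RPKM and GstS1, a transferase abundant in muscle, 168, 151 and 166 RPKM, and GstE6 138, 144 and 153 RPKM. The tandem GstD genes, whose copies are alike and may share reads, ran from GstD1 at 122, 152 and 144 RPKM to GstD4 at 0.285, 1.08 and 0.401 RPKM. UDP-glycosyltransferases were detected for 16 of 18 genes at a median of 8.65 RPKM, with Ugt86Da at 50.2, 62.1 and 45.7 RPKM and then Ugt36Bc, Ugt36Ba and Ugt58Fa at means of 48.7, 34 and 31.7 RPKM.

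Odorant-binding proteins differed from the receptors named above. Of 45 genes 15 were detected (33.3%), against 58.1% of all protein-coding genes, and 28 had means under 1 RPKM. A mean of 100 RPKM was exceeded by 3 genes, namely Obp99a at 167, 92.9 and 176 RPKM, Obp44a at 142, 125 and 157 RPKM and Obp99c at 109, 86.5 and 125 RPKM. Obp83cd followed at 83.7, 91.5 and 91.1 RPKM. Members of this family are also made outside sense organs in the fly. The adult antennal gene lush was at 0.217, 0.328 and 0.247 RPKM, and Obp22a and Obp57c were listed at 0. Among mucins, Muc26B had 179, 446 and 253 RPKM with its highest value in control 2, and Muc55B 92.8, 116 and 94.8 RPKM, with Mur18B and Mur29B at means of 42 and 26.3 RPKM. The stress-induced Turandot genes were low, with 1 of 7 detected and TotC at 1.17, 3.59 and 1.06 RPKM, TotF at 0.966, 1.02 and 1.57 RPKM and TotA at 0.582, 1.65 and 0.521 RPKM. The mean of TotC was 1.11 RPKM without control 2. Of the peptidoglycan recognition proteins, which sense bacteria, PGRP-LE led with 12, 15.7 and 11.9 RPKM, followed by PGRP-LF at 7.9, 8.71 and 8.94 RPKM, PGRP-SD at 4.97, 4.59 and 7.1 RPKM and PGRP-SC2 at 0.932, 4.0 and 1.87 RPKM, and PGRP-SC1a was at 0, 0.475 and 0.19 RPKM.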
